A study of Mus musculus with 20 samples.

Results

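The genes described here are 9 canonical Wnt target genes, Axin2, Lef1, Tcf7, Lgr5, Nkd1, Notum, Sp5, Znrf3 and Rnf43, measured in mesenchymal cells of the mouse stomach and intestine. They were taken by symbol, and all 9 were found among the 43280 genes listed in each RNA-seq count table. The embryonic cells were GFP+ cells sorted from embryos at E13.5 (embryonic day), labelled C57BL/6, although the study's reporting summary gives mixed strain backgrounds for the Eed fl and Rosa26mTmG alleles. Control embryos carried Bapx1-Cre and Rosa26mTmG, and Eed KO embryos carried Eed fl/fl, Bapx1-Cre and Rosa26mTmG, so Cre and the reporter were shared by both genotypes. Bapx1-Cre acts in the mesenchyme of the developing gut, and Rosa26mTmG is a reporter that switches to GFP where Cre has acted. EED is a core subunit of Polycomb Repressive Complex 2 (PRC2), the complex that methylates histone H3 at lysine 27. RNA-seq covered control stomach, Eed KO stomach, control intestine and Eed KO intestine, with 2 libraries in each group. A further 4 RNA-seq libraries came from adult intestinal mesenchyme, 2 labelled WT (adult control) and 2 labelled EED-KO. The study's methods describe those cells as GFP+ cells of the small intestine of tamoxifen-treated mice with Pdgfrβ-CreERT2 and Rosa26mTmG, with or without Eed fl/fl. The reporting summary gives a mixed strain background for the Pdgfrβ-CreERT2 line as well. ATAC-seq, which marks accessible chromatin, was deposited for the 4 embryonic groups as 1 peak list each, pooled over 2 samples. The labels do not say which libraries came from the same embryos or animals, and p-values measure only the spread between these libraries.

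In canonical Wnt signalling a secreted Wnt ligand binds a Frizzled receptor with Lrp5 or Lrp6, the Axin-based destruction complex stops degrading β-catenin, and β-catenin joins TCF/LEF proteins on DNA to activate target genes. Many of these targets act back on the pathway, and their RNA is therefore a common readout of a cell's own response to Wnt. Lef1 and Tcf7 encode DNA-binding partners of β-catenin, and Sp5 encodes a zinc finger transcription factor. Lgr5 is a receptor for R-spondins, which strengthen Wnt signals by removing the ubiquitin ligases Rnf43 and Znrf3, the enzymes that take Frizzled receptors off the cell surface. Axin2 is a scaffold of the destruction complex, Nkd1 binds Dishevelled and dampens the signal, and Notum is a secreted enzyme that inactivates Wnt ligands. In the gut, mesenchymal cells are known as a source of the Wnt ligands and R-spondins that reach the epithelium.

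The sequences before the start sites of Sp5 and Lef1 are shown because these were the members with a called difference between groups, and that of Axin2 because it is the most widely used readout of the pathway. Each is the stretch of 250 bases before a RefSeq transcript start (GRCm38.p6, plus strand, 5′ to 3′), at chr2:70474673-70474922 for Sp5, chr3:131110047-131110296 for Lef1 and chr11:108920099-108920348 for Axin2. Capitals mark matches to 4 words of the TCF/LEF type, which were the word CTTTGAA, the word CTTTGAT, the word CTTTGTT and the word CTTTGTA, searched on both strands.
Sp5: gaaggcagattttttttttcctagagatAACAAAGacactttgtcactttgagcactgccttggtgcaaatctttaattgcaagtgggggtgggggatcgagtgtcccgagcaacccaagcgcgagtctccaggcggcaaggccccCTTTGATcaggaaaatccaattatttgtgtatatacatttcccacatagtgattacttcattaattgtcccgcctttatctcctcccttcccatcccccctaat
Lef1: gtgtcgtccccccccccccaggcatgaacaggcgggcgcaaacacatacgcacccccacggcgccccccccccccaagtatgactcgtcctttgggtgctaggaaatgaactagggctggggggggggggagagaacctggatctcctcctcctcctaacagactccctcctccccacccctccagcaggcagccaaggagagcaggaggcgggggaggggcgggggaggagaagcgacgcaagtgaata
Axin2: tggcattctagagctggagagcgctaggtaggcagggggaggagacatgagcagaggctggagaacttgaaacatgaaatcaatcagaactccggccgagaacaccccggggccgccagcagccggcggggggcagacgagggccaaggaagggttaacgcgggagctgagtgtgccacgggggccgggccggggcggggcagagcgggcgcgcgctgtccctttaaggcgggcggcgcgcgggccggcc

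Sp5 held 2 matches, CTTTGTT read on the opposite strand starting 222 bases before the start and CTTTGAT starting 104 bases before it. The stretches of Lef1 and Axin2 held 0. RefSeq windows of 300 bases, running 50 bases past the start, were at hand for 6 members: Axin2, Lef1, Tcf7, Nkd1, Sp5 and Rnf43. Among these, a word was found in the window of Sp5 and in 1 of the 4 windows of Lef1, at chr3:131156044-131156343, where CTTTGTA lay on the opposite strand. At least 1 of the 4 words was present in 16.9% of all 32851 mouse windows. A match describes the letters and not a bound site.

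The library labels were first checked against Eed itself. Eed stood at 38.1 and 40.1 CPM (counts relative to the library total) in control intestine and at 10.7 and 8.59 in Eed KO intestine, and at 40.1 and 41.5 in control stomach against 11.5 and 7.40 in Eed KO stomach. It was 0.231 times the control level in Eed KO stomach (log2 fold change -2.11 ± 0.21 (SE), adjusted p = 0.00175) and fell by 2.02 ± 0.21 on the log2 scale in Eed KO intestine (adjusted p = 0.00464, edgeR's quasi-likelihood test with Benjamini-Hochberg adjustment). In the adult libraries Eed stood at 29.7 and 33.4 CPM in control against 25.7 and 25.0 in those labelled Eed KO, and the difference did not pass the test (log2 fold change -0.32 ± 0.21, adjusted p = 0.317). In TPM (counts per gene length, relative to the library without TMM scaling) adult Eed was 36.5 ± 2.30 in control and 19.9 ± 1.86 in Eed KO (SD, n = 2). The size of the adult Eed difference thus depended on the scaling. Embryonic libraries held 30236159 to 39606157 counts and adult ones 11404712 to 15903642, so 3 counts were worth at most 0.0992 CPM and 0.263 CPM. Added spike-in RNA gave 26227 to 37590 counts in the embryonic control libraries and 4871 to 14932 in the embryonic Eed KO libraries.

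Markers of mesenchyme were high in every library, with 9 genes summing to 13540 to 25140 CPM in the embryo. Markers of other cells were also counted, and differences in the share of a cell type and in RNA per cell cannot be told apart in such libraries. The 6 T cell markers, of interest because T cells express Lef1 and Tcf7, summed to 0.290 to 0.976 CPM in the embryonic libraries, with Cd3e, Cd3d and Cd2 at 0 counts in all of them. The 7 macrophage markers summed to 4.55 to 12.8 CPM, and the 6 erythroid markers to 0.466 to 12.8 CPM. The 8 epithelial markers summed to 66.8 to 106 CPM in control intestine, 70.2 to 79.0 in Eed KO intestine, 107 to 115 in control stomach and 88.4 to 121.8 in Eed KO stomach. Of these 8, 2 were called lower in control intestine than in control stomach and 0 higher. On Eed loss 0 were called in either organ, while DESeq2 called 2 in each. The part of epithelial cells in the values of the 9 genes was not tested. The 6 endothelial markers, of a cell type that also expresses Lef1, summed to 15.5 to 20.5 CPM in control intestine against 48.6 to 49.4 in Eed KO intestine, and to 14.9 to 15.4 in control stomach against 25.4 to 46.1 in Eed KO stomach. Of these 6, 4 were called higher in Eed KO than in control stomach, 2 in Eed KO than in control intestine and 3 in control intestine than in control stomach (median log2 fold change 2.47, 1.59 and 1.46), and 0 were called lower. The 6 smooth muscle markers summed to 1820 to 2059 CPM in Eed KO stomach, 2759 to 5520 in the other embryonic groups, and the 7 enteric neural crest markers to 195 to 208 CPM in control intestine, 97.3 to 169 in Eed KO intestine and 55.3 to 75.1 in stomach. Of the smooth muscle markers, 4 of 6 were called higher in Eed KO intestine than in Eed KO stomach.

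Per unit of transcript length, the 9 genes spanned more than an order of magnitude in the embryonic mesenchyme. Nkd1 was the most abundant, at 25.3 ± 1.17 TPM (SD, n = 2) in control intestine and 26.4 ± 2.17 in control stomach, followed by Tcf7 at 16.6 ± 0.848 and 16.8 ± 1.72. Znrf3 stood at 8.43 ± 0.274 and 8.97 ± 0.486 TPM and Axin2 at 7.50 ± 1.44 and 9.54 ± 0.307. The remaining 5 were near or below 1 TPM in the controls. Rnf43 was at 0.617 ± 0.0328 TPM in control intestine and 1.23 ± 0.383 in control stomach, Lef1 at 0.122 ± 0.0781 and 1.21 ± 0.201, Notum at 1.04 ± 0.155 and 0.492 ± 0.288, and Sp5 at 0 and 0.518 ± 0.257. Lgr5 was the lowest in control stomach, at 0.140 TPM, and stood at 0.0211 TPM in control intestine. The members with a called difference thus came from the low end of this range.

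**Figure D1:**
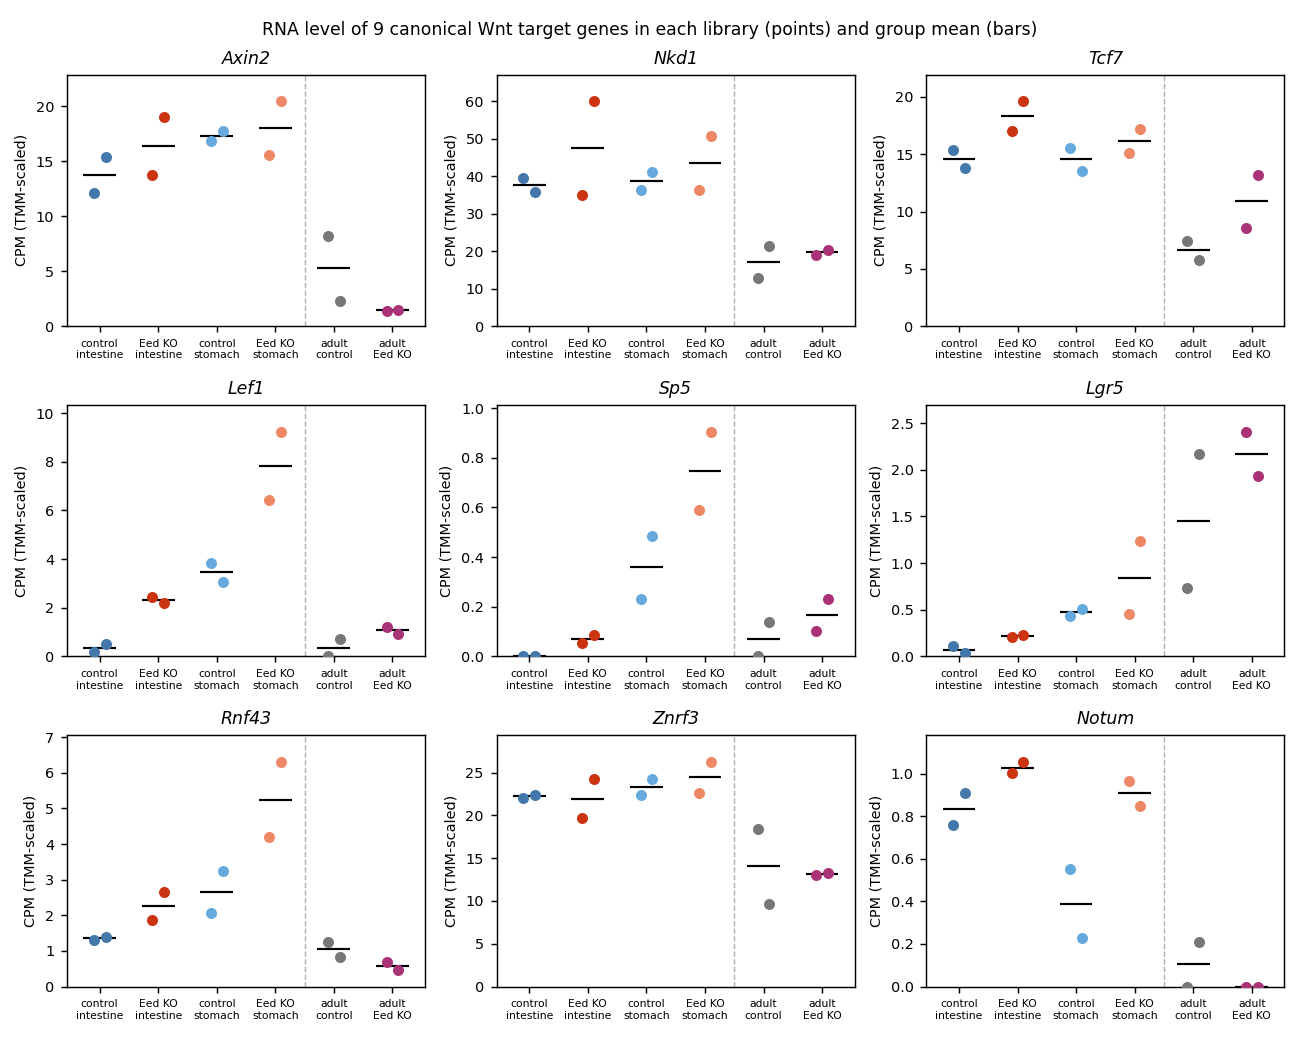
CPM (linear axes from 0, each with its own range) of the 9 Wnt target genes in each embryonic and adult RNA-seq library, with 1 point for each library and a bar at the mean of each group. Lef1 rises in steps from control intestine (0.197 and 0.505) over Eed KO intestine and control stomach to Eed KO stomach (6.44 and 9.24), while Nkd1, Tcf7, Axin2 and Znrf3 stay at like levels in the 4 embryonic groups.

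Organ and genotype were compared in one fit of the 8 embryonic libraries over 16218 genes, in which a gene was called when its adjusted p was under 0.05 and its fold change over 2. Between organs, 2 of 9 members were called lower in control intestine than in control stomach, Sp5 and Lef1, and 0 were called higher (background 3.39% of tested genes called lower and 1.68% called higher). The same 2 genes were called lower in Eed KO intestine than in Eed KO stomach, and 0 higher, against a background of 2.94% and 1.46%. On loss of Eed, 1 of 9 was called higher in the intestine, Lef1, and 0 lower (background 2.38% higher and 0.228% lower). In the stomach 0 of 9 were called in either direction, against a background of 4.84% higher and 0.808% lower. At an unadjusted p under 0.05, 3 members differed in the stomach, Lef1, Rnf43 and Notum, as did 3668 of all 16218 genes. There DESeq2 called 1 of 9, Lef1, and over all genes 902 higher and 164 lower.

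The fitted fold changes in the Eed KO stomach were above 0 for 9 of 9 members with a median of 0.83 on the log2 scale, while the median over all genes was 0.00084. Spike-in counts were 26227 to 37590 in the embryonic control and 4871 to 14932 in the Eed KO libraries, without overlap. A factor estimated from them thus cannot be fully told apart from the effect of Eed loss. With 1 such factor of unwanted variation (RUVg, in DESeq2), all genes called higher in the stomach went from 902 to 358. Of the members 3 of 9 were above 0 and the median was -0.21, so the direction of the set in the stomach depended on this choice. It also depended on 1 library: without Eed KO stomach replicate 2, 5 of 9 were above 0 with a median of 0.053, and without Eed KO stomach replicate 1 the median was 1.13. In the intestine 8 of 9 were above 0 with a median of 0.33, and 6 of 9 with the spike-in factor (median 0.077). Without Eed KO intestine replicate 1 it was 9 of 9 with a median of 0.67, and without Eed KO intestine replicate 2 it was 7 of 9 with a median of 0.27. Both libraries of Eed KO stomach lay above both of control stomach for 4 members, Sp5, Lef1, Rnf43 and Notum, and 0 lay below (background 27.7% above and 27.3% below). In the intestine the libraries did not overlap for 6 members, Sp5, Lef1, Lgr5, Tcf7, Rnf43 and Notum, all higher in Eed KO, and for 0 in the other direction (background 21.8% and 16.4%). Sp5 and Lgr5 did not pass the count filter in a fit of the 2 intestinal groups alone. They were tested here through the stomach groups, where their counts were higher. In the fit of 2 groups 6 of 7 members were above 0, with a median of 0.32. The 8 of 9 above 0 in the main fit included Sp5, which had 0 counts in control intestine. In control intestine 5 members lay below control stomach without overlap, Sp5, Lef1, Lgr5, Rnf43 and Axin2, and 1 lay above, Notum (background 26.7% and 24.5%). In the Eed KO libraries 4 lay below, Sp5, Lef1, Lgr5 and Rnf43, and Notum lay above (background 23.9% and 20.5%).

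**Figure D2:**
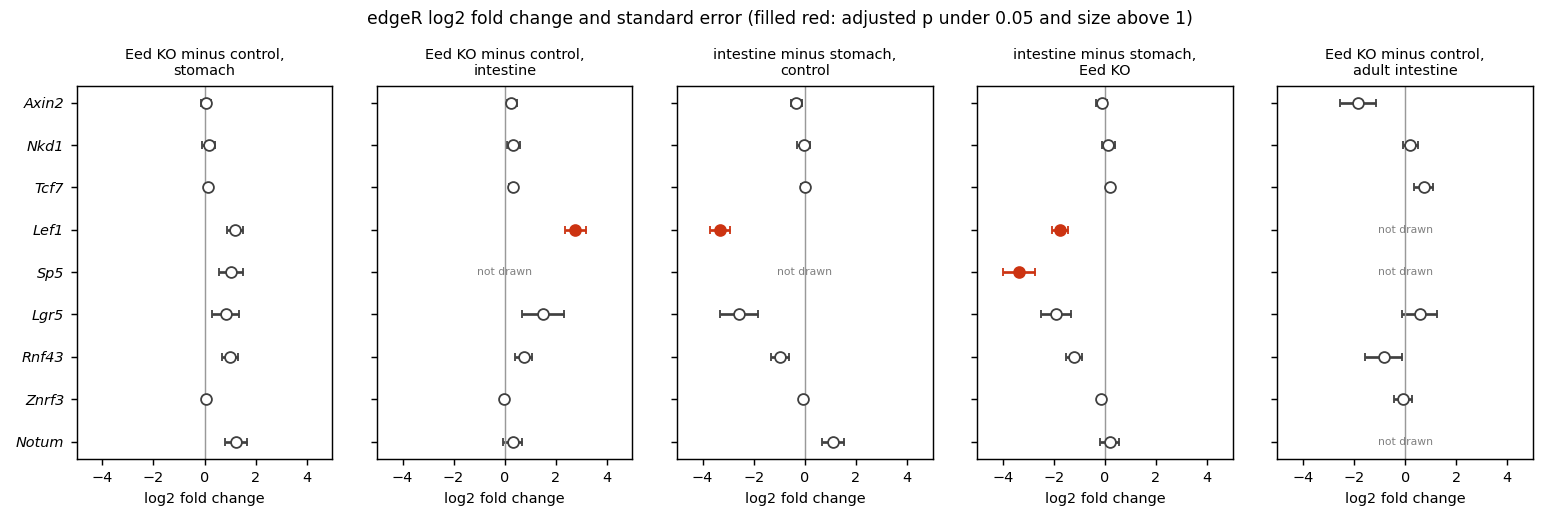
Fitted log2 fold changes with standard errors of the 9 Wnt target genes in the embryonic comparisons and of the 6 that could be tested in the adult comparison, with called genes in filled red. Sp5 is not drawn in the 2 comparisons with control intestine, where it had 0 counts, nor are Lef1, Sp5 and Notum in the adult. The largest changes drawn are those of Lef1 and Sp5, and Axin2, Tcf7, Nkd1 and Znrf3 lie close to 0 in the embryo.

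Lef1 (chr3:131110471-131224356, plus strand, mm10), the transcription factor that pairs with β-catenin, showed the clearest pattern. It stood at 0.197 and 0.505 CPM in control intestine (7 and 15 counts), 2.45 and 2.20 CPM in Eed KO intestine, 3.86 and 3.06 CPM in control stomach, and 6.44 and 9.24 CPM in Eed KO stomach. The 4 groups did not overlap, and Eed KO intestine lay between control intestine and control stomach. Lef1 was 6.76 times higher in Eed KO than in control intestine (log2 fold change 2.76 ± 0.41, adjusted p = 0.0165), and the counts alone gave a ratio of 6.92 (95% exact interval 4.42 to 11.3, which covers counting error only). Without control intestine replicate 1, the lower of the 2 controls, the log2 fold change was 2.19 and the call was lost (adjusted p = 0.110, with a range of 1.40e-07 to 0.110 over the 16 alternatives). The endothelial markers moved in the same direction in this comparison, and their part in the result was not tested.

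Between the organs Lef1 was 0.0998 times as high in control intestine as in control stomach (log2 fold change -3.33 ± 0.40, adjusted p = 0.00324), a call kept in 15 of 16 alternatives. In the Eed KO libraries it was lower in the intestine as well (log2 fold change -1.75 ± 0.32, adjusted p = 0.0206), and 12 of 16 alternatives called it. It was lost without Eed KO intestine replicate 1 (adjusted p = 0.0645), Eed KO intestine replicate 2 (0.0782) or Eed KO stomach replicate 2 (0.125, log2 fold change -1.47). In the stomach the rise of 1.18 ± 0.31 on Eed loss did not pass the test (adjusted p = 0.0645), and 8 of 16 alternatives called it, among them the fits without control intestine replicate 1 (adjusted p = 0.0467) and without control intestine replicate 2 (adjusted p = 0.0472). The endothelial markers were also higher in Eed KO stomach, and their part in the Lef1 values was not tested. The interaction term, which asks whether the effect of Eed loss differed between the organs, was 1.57 ± 0.52 for Lef1 and did not pass (adjusted p = 0.610). None of the 9 members passed this test with edgeR or DESeq2 (background 0.462% called, 0.191% above and 0.271% below). Lef1 was the 1 member with an unadjusted p under 0.05, found for 954 of all 16218 genes.

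Sp5 (chr2:70474923-70477729, plus strand), a zinc finger transcription factor and direct Wnt target, followed the same order at far lower counts. It had 0 and 0 counts in control intestine, 2 and 3 in Eed KO intestine, 8 and 19 in control stomach, and 22 and 33 in Eed KO stomach, and these groups did not overlap. Against a floor of 3 counts over the group, Sp5 was at least 7.97-fold lower in control intestine than in control stomach (adjusted p = 0.0248), and at least 1.49-fold higher in Eed KO than in control intestine, where it did not pass the test (adjusted p = 0.295). In Eed KO intestine its counts were 0.0919 times those in Eed KO stomach (exact interval 0.0287 to 0.228, adjusted p = 0.0280). The control comparison was no longer called without control intestine replicate 1 (adjusted p = 0.135), control intestine replicate 2 (0.0938) or control stomach replicate 2 (0.110). The Eed KO comparison was lost without any 1 of its 4 libraries (adjusted p = 0.129 and 0.0904 without Eed KO intestine replicates 1 and 2, and 0.0677 and 0.145 without Eed KO stomach replicates 1 and 2). In the stomach the ratio of Eed KO to control counts was 2.04 (1.26 to 3.36, adjusted p = 0.266), with Sp5 at 0.232 and 0.484 CPM in control and 0.590 and 0.905 CPM in Eed KO. The adjusted p of Sp5 in these comparisons rests on at most 33 counts in a library.

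Tcf7 (chr11:52252371-52283014, minus strand), the other TCF/LEF family member of the set, stayed within a narrow band. It stood at 15.3 and 13.8 CPM in control intestine, 17.0 and 19.6 in Eed KO intestine, 15.6 and 13.51 in control stomach, and 15.1 and 17.2 in Eed KO stomach. The intestinal groups did not overlap and the stomach groups did. The log2 fold change on Eed loss was 0.33 ± 0.14 in the intestine (adjusted p = 0.364) and 0.15 ± 0.14 in the stomach (adjusted p = 0.574), and the organ difference in control libraries was 0.01.

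Among the receptor-level genes, Rnf43 (chr11:87662722-87735539, plus strand) followed the order of Lef1. It stood at 1.32 and 1.38 CPM in control intestine, 1.87 and 2.65 in Eed KO intestine, 2.06 and 3.24 in control stomach, and 4.18 and 6.31 in Eed KO stomach. Eed KO intestine and control stomach overlapped, and every other pair of neighbours in this order was apart. No Rnf43 difference passed the test in the main fit, which has no term for the replicate number. The log2 fold change on Eed loss was 0.98 ± 0.31 in the stomach (adjusted p = 0.111) and 0.74 ± 0.34 in the intestine (adjusted p = 0.397). Between organs it was -0.97 ± 0.34 in control (adjusted p = 0.165) and -1.21 ± 0.32 in Eed KO libraries (adjusted p = 0.0715), and the last of these was called in 5 of 16 alternatives. Among these were the fits with a term for the replicate number, as a replicate block (adjusted p = 0.0107) or a replicate block within genotype (0.00611). Deviations of same-numbered Eed KO libraries correlated at 0.859 between organs.

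Znrf3 (chr11:5276324-5444847, minus strand), the second ubiquitin ligase with the same task, showed no such order. Its values ran from 19.7 to 26.2 CPM over the 8 embryonic libraries, and all groups next to each other in level overlapped. The log2 fold changes were 0.07 ± 0.14 in the stomach (adjusted p = 0.808) and -0.02 ± 0.14 in the intestine (adjusted p = 0.986). Lgr5 (chr10:115450311-115587780, minus strand), the R-spondin receptor known from intestinal stem cells, was close to the limit of the depth in mesenchyme. It had 4 and 1 counts in control intestine, 8 and 8 in Eed KO intestine, 15 and 20 in control stomach, and 17 and 45 in Eed KO stomach. Control intestine lay lowest and the stomach groups overlapped. Its counts in control intestine were 0.161 times those in control stomach (exact interval 0.0493 to 0.413), and this difference did not pass the test across libraries (adjusted p = 0.0961), nor did that between the Eed KO organs (log2 fold change -1.93 ± 0.58, adjusted p = 0.108). Both were called with a replicate block within genotype (adjusted p = 0.0396 and 0.0368) and with no filter on low counts (0.0290 and 0.0439), and the first also with the spike-in factor. The ratio of Eed KO to control intestine was 2.87 (1.00 to 10.0, adjusted p = 0.526), and the log2 fold change of 1.49 was 2.58 without control intestine replicate 1 and 0.94 without control intestine replicate 2. In the stomach, the log2 fold change of 0.83 ± 0.52 (adjusted p = 0.401) rested on Eed KO stomach replicate 2 and was -0.056 without it.

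The intracellular and secreted inhibitors varied less or in another order. Axin2 (chr11:108920349-108950783, plus strand), the scaffold of the destruction complex, stood at 12.1 and 15.4 CPM in control intestine, 13.8 and 19.0 in Eed KO intestine, 16.9 and 17.7 in control stomach, and 15.6 and 20.4 in Eed KO stomach. Control and Eed KO overlapped in both organs, with log2 fold changes of 0.25 ± 0.21 in the intestine (adjusted p = 0.746) and 0.06 ± 0.21 in the stomach (adjusted p = 0.900). The controls did not overlap between organs, but the difference of -0.33 ± 0.21 was not called (adjusted p = 0.533). Nkd1 (chr8:88521344-88594887, plus strand), the Dishevelled-binding inhibitor, ran from 34.9 to 60.0 CPM with overlap between all groups. The spread within Eed KO intestine alone was as wide as that range, 34.9 and 60.0 CPM, and the log2 fold changes were 0.33 ± 0.26 in the intestine (adjusted p = 0.718) and 0.17 ± 0.26 in the stomach (adjusted p = 0.741).

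Notum (chr11:120653788-120661175, minus strand), the secreted Wnt deacylase, was the member with the reverse order between organs. It stood at 0.551 and 0.229 CPM in control stomach, 0.759 and 0.909 in control intestine, 0.966 and 0.850 in Eed KO stomach, and 1.00 and 1.06 in Eed KO intestine. Control stomach lay below the other 3 groups. The counts in Eed KO stomach were 2.39 times those in control stomach (exact interval 1.52 to 3.86), and the fitted log2 fold change of 1.23 ± 0.42 did not pass the test (adjusted p = 0.129). It was 1.97 without control stomach replicate 1 and 0.72 without control stomach replicate 2. In control libraries Notum was higher in intestine than in stomach by 1.10 ± 0.42 on the log2 scale (adjusted p = 0.220), a value of 1.84 and 0.60 without control stomach replicates 1 and 2. Its change on Eed loss in the intestine was 0.31 ± 0.39 (adjusted p = 0.867).

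In the adult intestinal mesenchyme 6 of the 9 members had enough counts to be tested, and 0 were called by edgeR or DESeq2 (background 12.3% of 15039 genes called higher and 7.23% lower). Axin2 was the 1 member with an unadjusted p under 0.05, found for 5558 of the 15039 genes. It stood at 8.20 and 2.31 CPM in adult control and at 1.41 and 1.47 CPM in the libraries labelled Eed KO, without overlap. Its log2 fold change of -1.86 ± 0.70 did not pass the test (adjusted p = 0.102) and depended on the control libraries. It was -0.69 without adult control replicate 1 (adjusted p = 0.683) and -2.50 without adult control replicate 2, where it was called (adjusted p = 0.0222, with a range of 0.00921 to 0.683 over 11 alternatives). Tcf7 stood at 7.46 and 5.75 CPM in adult control and 8.53 and 13.2 in Eed KO, again without overlap (log2 fold change 0.72 ± 0.37, adjusted p = 0.204). In TPM the Tcf7 groups overlapped, at 7.40 and 5.53 in adult control and 5.95 and 8.29 in Eed KO. Rnf43 stood at 1.24 and 0.841 CPM against 0.703 and 0.464 (log2 fold change -0.84 ± 0.72, adjusted p = 0.439). Non-overlap in CPM thus held for 1 of these 6 genes in the higher and 2 in the lower direction (background 32.3% and 33.0%).

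Lgr5 at 0.732 and 2.17 CPM against 2.41 and 1.93, Nkd1 at 12.8 and 21.3 against 19.1 and 20.3, and Znrf3 at 18.4 and 9.67 against 13.0 and 13.2 were not called (adjusted p = 0.595, 0.667 and 0.870). Lgr5 and Nkd1 gave overlapping groups in CPM, and so did Znrf3. In TPM Znrf3 stood at 6.08 and 3.10 in adult control against 3.03 and 2.76 in Eed KO, without overlap. The 3 members below the filter were Lef1, Sp5 and Notum. Lef1 had 0 and 10 counts in adult control and 12 and 12 in Eed KO, a ratio of 2.93 in CPM (exact interval 1.35 to 6.86), which compares these libraries only. In TPM the Lef1 groups overlapped, at 0 and 0.205 in adult control against 0.255 and 0.176 in Eed KO. Sp5 had 0 and 2 counts against 1 and 3, a ratio of 2.44 with an interval from 0.350 to 27.0, and Notum had 0 and 3 against 0 and 0, too few for a ratio.

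The adult groups also differed in their markers. The mesenchymal markers summed to 22345 to 24795 CPM in adult control and 12282 to 13047 in Eed KO, while the macrophage markers summed to 615 to 878 against 16309 to 18052 CPM, with 7 of 7 called higher. T cell markers summed to 16.5 to 18.8 CPM in adult control and 22.1 to 24.1 in Eed KO. Adult smooth muscle markers rose from 1820 to 2257 CPM in control to 3149 to 3707 in Eed KO, with 3 of 6 called higher. Enteric neural crest markers summed to 292 to 471 against 131 to 148 CPM, but over the 5 of them tested the median log2 fold change was 2.00, with 1 called higher and 1 lower. In CPM, endothelial markers summed to 102 to 103 against 150 to 220, epithelial markers to 30.7 to 63.1 against 66.9 to 76.9 and erythroid markers to 0.805 to 2.102 against 4.32 to 4.41. The part of these in the adult values of Axin2, Tcf7 and Rnf43 was not tested. The adult libraries were counted without strand, so reads of Tcf7, Lgr5, Notum, Axin2 and Rnf43 cannot be told from those of genes on the opposite strand that overlap them.

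All 9 members had an ATAC-seq peak within 1000 bp of the outermost annotated start site in each of the 4 embryonic lists, as did 87.0% of 16191 genes. Further coding starts of Nkd1 (chr8:88527653 and chr8:88582805), Znrf3 (chr11:5381740) and Rnf43 (chr11:87664549 and chr11:87699897) had no such peak in any list. The Nkd1 window searched for words contained the first of these. For Sp5, which had 0 counts in control intestine, the fold enrichment of the promoter peak was 3.42 in control intestine, 2.69 in Eed KO intestine, 3.60 in control stomach and 2.63 in Eed KO stomach. The 250 bases of Sp5 shown above lay inside this peak in all 4 lists. The peak itself ran over 1270 bp in control intestine (chr2:70474146-70475415) and 3614 bp in control stomach (chr2:70473435-70477048), and over 3537 and 3987 bp in the Eed KO lists of intestine and stomach. For Lef1 the fold enrichment was 4.04 in control intestine, 3.51 in Eed KO intestine, 3.45 in control stomach and 3.29 in Eed KO stomach. Axin2 stood at 3.76, 3.61, 3.84 and 3.73 in the same order. Of the 250 bases shown above, 58 to 250 lay inside the peak for Lef1 and 240 to 250 for Axin2, depending on the list. Control intestine, the group with the lowest Lef1 RNA, thus had the highest Lef1 peak value. It also had the highest value for Tcf7, Lgr5, Nkd1, Notum, Znrf3 and Rnf43, though not for Axin2 and Sp5. Its median over all peaks was highest as well, at 3.81 against 3.49 in Eed KO intestine, 3.63 in control stomach and 3.65 in Eed KO stomach.

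The ratio of Eed KO to control fold enrichment in the stomach was 0.730 for Sp5, below the 5th percentile of 0.819 over 14084 genes with a peak in all lists. In the intestine it was 0.787 for Sp5, inside the range from the 5th percentile of 0.768 to the 95th of 1.15. The other 8 members lay within the 5th to 95th percentiles in both organs, as all 9 did for control intestine over control stomach. The highest promoter enrichment belonged to Rnf43, at 8.25 in control intestine, 6.66 in Eed KO intestine, 7.40 in control stomach and 7.37 in Eed KO stomach, and to Lgr5, at 6.95, 6.14, 6.57 and 6.77. Lgr5 was the member with the lowest RNA level per length in control stomach. The lists hold no read counts and no separate replicates, so these ratios carry no error and no test.

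**Figure D3:**
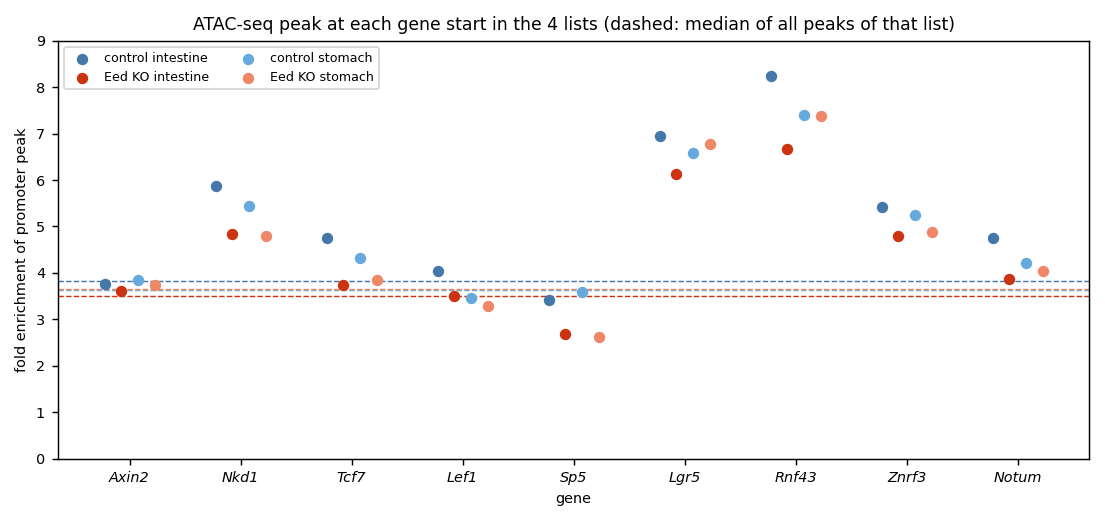
Fold enrichment of the ATAC-seq promoter peak of each of the 9 Wnt target genes in the pooled peak list of each embryonic group, with 1 point for each list and a dashed line at the median of all peaks of that list. Every gene has a value in all 4 lists, from 2.63 (Sp5, Eed KO stomach) to 8.25 (Rnf43, control intestine).

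Over the 9 loci, taken as the gene with 10000 bp upstream, the peaks of the 4 lists merged into 94 regions. Of these, 41 were present in all 4 lists (43.6%, against 46.0% of 162108 regions over the genome), 26 in Eed KO lists alone (27.7% against 19.8%) and 12 in control lists alone (12.8% against 13.4%). Lgr5 and Znrf3 each had 7 of the regions seen in Eed KO lists alone, Lef1 and Nkd1 4 each, Axin2 3 and Rnf43 1. Sp5 had a single region and Notum 2, shared by all lists. The lists differ in size, from 103808 peaks in control intestine to 119181 in Eed KO intestine, and no test was run on these counts.

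The 9 genes were then set beside 83 other genes of the pathway in 6 lists, 19 Wnt ligands, 4 R-spondins, 10 secreted antagonists, 16 receptors, 19 components of signal transduction and 15 other reported Wnt target genes. Of these, 75 were tested in the embryo. The lists were chosen with earlier results of these data known, so their shares of called genes cannot test the pathway as a whole. In the Eed KO stomach 9 were called higher and 1 lower, and in the Eed KO intestine 6 higher and 0 lower (13.3% and 8% called, beside 5.65% and 2.61% of all genes). In control intestine 2 were higher and 10 lower than in control stomach (16%, beside 5.07%), and in the Eed KO libraries 0 and 6 (8%, beside 4.40%). Without 1 library these counts ranged over 2 to 10 higher and 0 to 2 lower in the stomach, 1 to 5 higher in the intestine, 2 to 4 higher and 1 to 10 lower in control intestine, and 0 to 1 higher and 3 to 5 lower in Eed KO intestine. With the spike-in factor (RUVg, in DESeq2), 2 pathway genes were called higher and 3 lower in the Eed KO stomach. DESeq2 without the factor called 12 higher and 5 lower there. In the Eed KO intestine the counts were 5 and 1 with the factor, 8 and 0 without. Between organs they did not change. The mostly upward calls in the stomach thus depended on this choice, and the factor cannot be fully told apart from Eed loss. The signal transduction list, which holds the parts shared by every Wnt-responding cell, had 0 of 19 genes called in any embryonic comparison by edgeR or DESeq2, with at most 1 at an unadjusted p under 0.05.

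**Figure D4:**
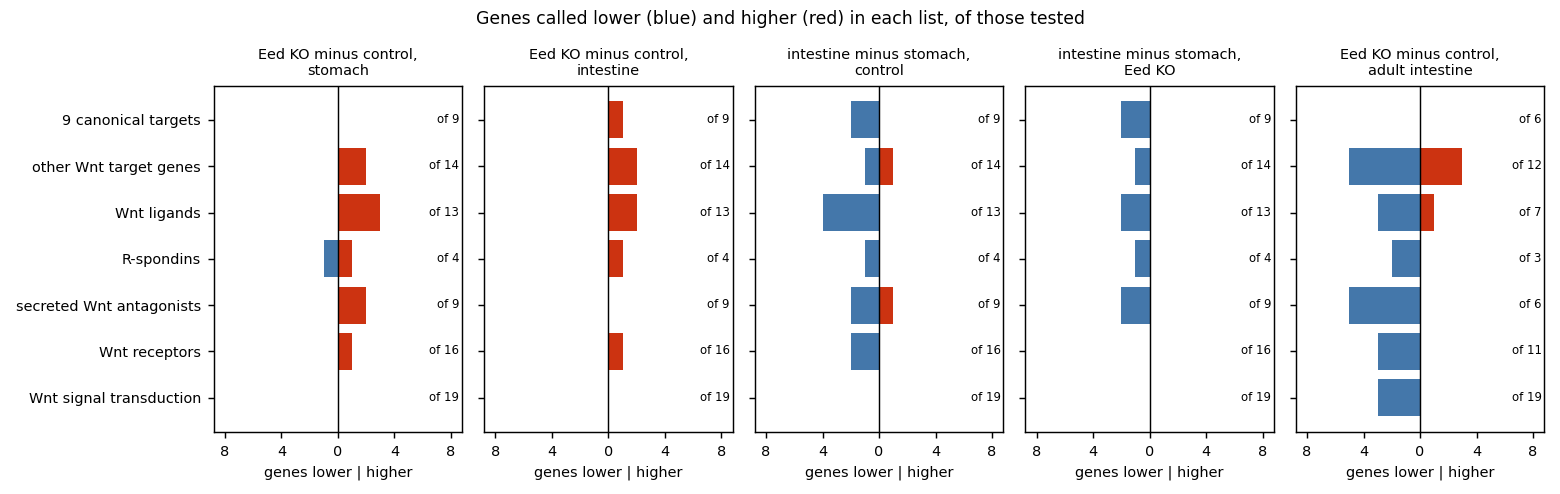
Number of genes called higher (red, to the right) and lower (blue, to the left) in each list of Wnt pathway genes and among the 9 target genes, for each comparison. Ligands, R-spondins, antagonists, receptors and other targets each hold called genes in the embryo, and the signal transduction list holds 0 of 19.

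The ligands were the list with the most calls in the Eed KO stomach, 3 of 13, all higher. Wnt11, which acts mostly outside the β-catenin route, stood at 14.2 and 11.5 CPM in control stomach and 35.8 and 32.7 in Eed KO stomach (log2 fold change 1.42 ± 0.21, adjusted p = 0.00852). Wnt6 rose by 1.41 ± 0.34 on the log2 scale (adjusted p = 0.0465), and Wnt10b, at 0 counts in control stomach, was at least 8.66-fold higher (adjusted p = 0.0312). In the Eed KO intestine 2 of 13 ligands were called higher, Wnt2 (4.20 ± 0.68, adjusted p = 0.0222) and Wnt6 (2.14 ± 0.39, adjusted p = 0.0328). Wnt2 stood at 0.0562 and 0.202 CPM in control intestine, 1.74 and 2.94 in Eed KO intestine, 1.25 and 3.03 in control stomach, and 6.49 and 7.79 in Eed KO stomach. Control intestine was lowest and Eed KO stomach highest, and Eed KO intestine and control stomach overlapped. Between the control organs 4 ligands were called lower in intestine and 0 higher, among them Wnt2 (-4.09 ± 0.68, adjusted p = 0.0122), Wnt2b (-1.23 ± 0.25, adjusted p = 0.0259) and Wnt3, whose ratio of stomach over intestine was 23.9 with an exact interval from 3.94 to 979.3 because control intestine held 1 count (adjusted p = 0.0255). In the Eed KO libraries Wnt11 (-1.64 ± 0.21, adjusted p = 0.00557) and Wnt3 (-2.56 ± 0.50, adjusted p = 0.0267) were called lower in intestine. The last Wnt11 call was kept in all 8 fits that left out 1 library, while the rise of Wnt11 in the stomach was lost without control stomach replicate 2 (adjusted p = 0.0729). The calls of Wnt6 and Wnt10b in the stomach, of Wnt2b and Wnt3 between control organs and of Wnt3 between Eed KO organs were each lost without any 1 of the 4 libraries compared (adjusted p up to 0.231, 0.136, 0.193, 0.136 and 0.150). Wnt2 was lost in the intestine without control intestine replicate 1 or 2 or Eed KO intestine replicate 2 (up to 0.183), and between control organs without control intestine replicate 1 or control stomach replicate 2 (up to 0.118). Wnt6 in the intestine was kept in 1 of 8 fits, that without Eed KO intestine replicate 1 (up to 0.136).

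Of the R-spondins, Rspo4 stood at 0.0580 and 0.128 CPM in control stomach and 1.37 and 1.62 in Eed KO stomach (log2 fold change 3.93 ± 0.42, adjusted p = 0.00241), and also rose in the intestine (3.01 ± 0.51, adjusted p = 0.0255). Rspo1 fell in the stomach by 1.07 ± 0.19 on the log2 scale (adjusted p = 0.0177), from 50.7 and 65.9 CPM to 29.6 and 26.1. Rspo2 was lower in control intestine than in control stomach (adjusted p = 0.0336), and Rspo4 was lower in Eed KO intestine than in Eed KO stomach (adjusted p = 0.0401). Among 9 tested antagonists, Frzb (1.64 ± 0.18, adjusted p = 0.00279) and Sfrp2 (1.39 ± 0.24, adjusted p = 0.0142), which bind Wnt ligands outside the cell, rose in the Eed KO stomach. In the Eed KO intestine 0 were called and 5 had an unadjusted p under 0.05, as did 2274 of all 16218 genes. There DESeq2 called 1 antagonist, and over all genes 628 higher and 57 lower. Dkk2, an inhibitor of Lrp5 and Lrp6, was higher in control intestine than in control stomach (1.43 ± 0.14, adjusted p = 0.00114). Sfrp2 was lower there (-1.13 ± 0.24, adjusted p = 0.0293), as was Sfrp4 (at least 8.86-fold, adjusted p = 0.0192), and both were lower in the Eed KO intestine than in the Eed KO stomach (adjusted p = 0.00971 and 0.0349). Of 16 receptor genes, Fzd10 rose in the Eed KO stomach (1.17 ± 0.26, adjusted p = 0.0382) and Kremen2 in the Eed KO intestine (2.13 ± 0.37, adjusted p = 0.0289), the latter called in 0 of 8 fits without 1 library. Kremen2 and Fzd5 were the receptors called lower in control intestine than in control stomach (adjusted p = 0.00570 and 0.00823).

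The calls of Rspo4 and Frzb in the stomach and of Dkk2 between control organs were kept in all 8 fits that left out 1 library. Rspo4 was kept in 2 of 8 fits in the intestine, those without control stomach replicate 1 or 2, and in 0 of 8 between Eed KO organs (adjusted p up to 0.208 and 0.220). Rspo1 was lost without control stomach replicate 2 or either Eed KO stomach library (up to 0.118), and Rspo2 without either control intestine library or control stomach replicate 2 (up to 0.188). Sfrp2 was lost in the stomach without either control stomach library or Eed KO stomach replicate 2 (up to 0.108), between control organs without control intestine replicate 1 or either control stomach library (up to 0.199), and between Eed KO organs without Eed KO stomach replicate 2 (0.0542). Sfrp4 was lost without any 1 of the 4 control libraries (up to 0.110), and in the Eed KO libraries without any of these except Eed KO stomach replicate 2, and without either control stomach library (up to 0.147). Fzd10 was kept in 3 of 8 fits, those without Eed KO stomach replicate 1 or an Eed KO intestine library (up to 0.214). Kremen2 was lost between control organs without control intestine replicate 1 (0.0636), and Fzd5 without either control intestine library (up to 0.0729).

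Among the 14 tested genes of the list of other targets, Ccnd1, which encodes cyclin D1, rose in both organs on Eed loss (1.01 ± 0.22 in the stomach, adjusted p = 0.0369, and 1.69 ± 0.23 in the intestine, adjusted p = 0.0118). The cell surface receptor Cd44 rose in the stomach (1.10 ± 0.22, adjusted p = 0.0246) and the transcription factor Sox9 in the intestine (2.07 ± 0.22, adjusted p = 0.00535). Sox9 stood at 0.983 and 1.18 CPM in control intestine, 3.85 and 5.19 in Eed KO intestine, 12.3 and 10.6 in control stomach, and 15.2 and 13.3 in Eed KO stomach. Its 4 groups did not overlap and took the same order as those of Lef1 and Sp5. It was lower in intestine than in stomach both in control (-3.40 ± 0.22, adjusted p = 3.19e-04) and in Eed KO libraries (-1.66 ± 0.19, adjusted p = 0.00406). Cd44 went the other way and was higher in control intestine than in control stomach (1.96 ± 0.22, adjusted p = 0.00231). The organ differences of Sox9 and Cd44 were kept in all 8 fits that left out 1 library. In the intestine Sox9 was lost without control intestine replicate 1 (adjusted p = 0.0686) and Ccnd1 without control intestine replicate 2 (0.0519). In the stomach Ccnd1 was lost without any 1 of the 4 stomach libraries (up to 0.218), and Cd44 was kept in 3 of 8 fits, those without Eed KO stomach replicate 1 or an Eed KO intestine library (up to 0.157).

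In the adult libraries 4 of 58 tested pathway genes were called higher and 21 lower (43.1%, beside 19.6% of all genes). The ligands Wnt2b and Wnt5a fell by 1.77 ± 0.36 and 1.52 ± 0.27 on the log2 scale (adjusted p = 0.0136 and 0.00791). Wnt11 was called higher, with 1 count in adult control and a ratio of 31.7 with an exact interval from 5.21 to 1300. Rspo2 and Rspo3 fell by 1.51 ± 0.31 and 1.07 ± 0.25 (adjusted p = 0.0145 and 0.0232). The largest falls among antagonists and receptors were those of Frzb (-2.77 ± 0.66, adjusted p = 0.0245), Wif1 (-2.74 ± 0.51, adjusted p = 0.00966), Dkk2 (-1.81 ± 0.37), Fzd2 (-2.25 ± 0.37), Fzd1 (-1.71 ± 0.21) and Fzd7 (-1.22 ± 0.35). In signal transduction Pygo1, Bcl9l and Dvl3 fell by 1.72, 1.61 and 1.07, and among other targets Apcdd1 and Ephb3 fell by 2.36 and 2.07 while Cdx1 rose by 4.30 ± 0.66 (adjusted p = 0.00448). Leaving out 1 adult library at a time kept the calls of Wnt2b, Wnt5a, Rspo2, Frzb, Wif1, Dkk2, Fzd2, Fzd1, Cdx1, Apcdd1 and Ephb3. Those of Pygo1 and Bcl9l were lost without adult control replicate 1 or adult Eed KO replicate 2 (adjusted p up to 0.205 and 0.122). Rspo3 was kept only without adult control replicate 2, Fzd7 only without adult Eed KO replicate 1, and Dvl3 only without adult Eed KO replicate 2 (up to 0.124, 0.167 and 0.191). Wnt11 was kept in 0 of the 3 fits in which it was tested (up to 0.186). The fall of mesenchymal and the rise of macrophage markers ran beside these differences, and their part was not tested.

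The genes whose embryonic levels followed those of a member most closely were found from the Pearson correlation of log2 CPM over the 8 libraries among 13386 genes, given without a test because the libraries form 4 groups and genes share their depth. For Lef1 they were Msx1 (r = 0.992), Faah (0.991) and Cxxc5 (0.987), and for Rnf43 Fam212b (0.988), Lamc3 (0.980) and Hpn (0.980). For Axin2 they were L3mbtl3 (0.978), App (0.969) and N28178 (0.967), and for Tcf7 Smarca5-ps (0.958), Tox (0.947) and Leng1 (0.946). For Nkd1 they were Cebpz (0.984), Ankrd13a (0.972) and Ift122 (0.972), and for Znrf3 Nhs (0.987), BC037032 (0.984) and Jak1 (0.981). No gene stood in the lists of 2 members. Notum, Sp5 and Lgr5 were below a mean of 1 CPM and were left out.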

How the data were processed

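RNA-seq counts per gene were deposited for 8 embryonic and 4 adult libraries. Per the labels and the study's methods, reads were trimmed with Trimmomatic 0.32 and aligned with STAR 2.5.1b, and the authors counted them per gene with featureCounts (the adult file headers give 1.5.0) on mm10. Embryonic libraries were stranded and adult ones were counted without strand. The deposited ATAC-seq peak lists (BWA 0.7.8, MACS2 2.1.2) give a fold enrichment as a ratio and −log10 p- and q-values per peak, and the authors pooled the 2 samples of each group. They hold no read counts, and peaks reach a −log10 q near 1.

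The 99 spike-in transcripts were kept out of library totals. Counts were fitted with edgeR 4.0.16 in R 4.3.3 (TMM scaling, filterByExpr, glmQLFit and glmQLFTest), in 1 fit of 4 group means for the 8 embryonic libraries and in a separate fit for the adult ones, leaving 16218 and 15039 genes. A gene was called at an adjusted p (Benjamini-Hochberg over all genes) under 0.05, or 0.2 for the interaction, and an absolute log2 fold change over 1. CPM used TMM-scaled totals, and TPM the gene lengths of the adult files. Intervals are exact at 95%, and folds against 0 counts use a floor of 3 counts over the group. The coefficient of variation between replicates was 15.8% in the embryo and 29.1% in the adult. Peaks within 1000 bp of the outermost annotated start site of a gene counted as promoter peaks, and regions were merged at 1 bp of overlap. Alternatives were DESeq2 1.42.0, other scalings and filters, a replicate block, fits of 2 groups, and leaving out each library. Code was tested on simulated data. Named were the 9 members, Eed, up to 3 called genes per pathway list with the largest change, the 3 genes most like each member (log2 of CPM plus 0.5), and markers of 8 cell types (another marker list is not reported here). The members and lists were chosen with earlier results of these data known.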

Additional observations from a re-analysis of the deposited data

Results flagged for a closer look

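Sox9, from the list of other Wnt target genes, responded differently to Eed loss in the 2 organs by the test of the difference itself. The interaction term was 1.74 ± 0.29 on the log2 scale (adjusted p = 0.108 with edgeR, under the threshold of 0.2 used for interactions). Sox9 rose by 2.07 ± 0.22 in the intestine, from 0.983 and 1.18 CPM to 3.85 and 5.19, while it stood at 12.3 and 10.6 CPM in control stomach and 15.2 and 13.3 in Eed KO stomach. The call was kept in 2 of the 8 fits that left out 1 library, those without Eed KO intestine replicate 1 or 2, and the adjusted p reached 0.436. Over all genes 0.462% passed this test, and 0 of the 9 target genes did.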

How the results depend on the processing

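Changes are relative to the TMM-scaled total of gene counts. With spike-in totals as library size the median over all genes moved to 2.39 (log2) in the Eed KO stomach, 1.85 in the Eed KO intestine, 0.30 between control organs, -0.24 between Eed KO organs, -0.53 for the interaction and -0.42 in the adult, and the members called became 9, 9, 1, 0, 0 and 1. Of all 16218 embryonic genes, 15419 were then called higher and 19 lower in the stomach, and 13664 and 24 in the intestine. Between control organs 70 were called higher and 85 lower, and in the adult 1154 and 1321 of 15039. The 9 members called in each organ on Eed loss thus went with most genes. Low counts limited Sp5, Lgr5 and adult Lef1, and 2 libraries per group limited every test.

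In the stomach, where 0 members were called, DESeq2, no filter on low counts, the replicate block, the replicate block within genotype and the fit of the 2 groups alone each called 1 (Lef1), and leaving out 1 library gave 0 to 1. In the intestine (1 called) the fit of 2 groups alone called 0 and leaving out 1 library gave 0 to 1. Between control organs (2 called) the spike-in factor (RUVg) called 4 (adding Lgr5 and Rnf43), no filter and the replicate block within genotype 3 (adding Lgr5), the fit of 2 groups alone 1, and leaving out 1 library gave 1 to 2. Between Eed KO organs (2 called) no filter and the replicate block within genotype each called 4 (adding Lgr5 and Rnf43), DESeq2, the spike-in factor and the replicate block 3 (adding Rnf43), the fit of 2 groups alone 1, and leaving out 1 library gave 0 to 2. In the adult (0 called) no filter called 1 and leaving out 1 library gave 0 to 1. The cause of these changes was not tested.

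With the spike-in factor log2 fold changes took the other sign in the stomach for Axin2 (-0.58), Tcf7 (-0.17), Lgr5 (-0.74), Nkd1 (-0.92), Sp5 (-0.21) and Znrf3 (-0.36), in the intestine for Axin2 (-0.25) and Nkd1 (-0.54), and between control organs for Tcf7 (-0.040). The embryonic spike-in counts behind this factor did not overlap between genotypes. Relative to the median under spike-in totals Znrf3 stood at 0.047 in the intestine. Leaving out 1 library changed signs for Axin2 (-0.16 to 0.24 in the stomach, -0.38 to 0.081 between Eed KO organs), Tcf7 (-0.089 to 0.11 between control organs), Lgr5 (-0.056 to 1.37 in the stomach, -0.012 to 1.56 in the adult), Nkd1 (-0.092 to 0.39 in the stomach, -0.11 to 0.67 in the intestine, -0.12 to 0.054 and -0.32 to 0.46 between organs, -0.12 to 0.62 in the adult) and Znrf3 (-0.045 to 0.17, -0.17 to 0.12 and -0.48 to 0.43 in stomach, intestine and adult).

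The samples share only a replicate number. Deviations of same-numbered libraries correlated at 0.460 between control organs, 0.859 between Eed KO organs, 0.085 to 0.212 across genotypes and -0.102 in the adult. With the replicate block, genes called in the stomach went from 785 higher and 131 lower to 1024 and 182, and within genotype to 1194 and 235. In the adult the block gave 1780 and 1000, and the crossed pairing, chosen after seeing the data, gave 1815 and 1060, against 1856 and 1088 without a block. The 9 promoter peaks were found in all 4 lists with windows of 5000 bp and at −log10 q of at least 2 or 5. With the peak midpoint in the window 7 remained, without Notum and Sp5.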
